A study of Mus musculus with 8 samples.

Results

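Astrocytes of naïve and GL261 tumour-bearing mouse brain were described from single-cell 3′ RNA-seq (Drop-seq) counts. A kept cell was called an astrocyte where Slc1a2, Slc1a3, Aqp4, Gja1, Aldoc and Gpr37l1 together reached at least 80 unique molecular identifiers (UMIs) per 10000, with at least 4 of the 6 genes detected. The tumour genes Col9a1, Lect1 and Rhox5 had to stay under 10 and the oligodendrocyte genes Mobp, Mog, Mag, Cldn11 and Ermn under 20 UMIs per 10000. The rule found 286 astrocytes among 5733 kept cells, which were those with at least 1000 genes detected among the 1000 barcodes with the most UMIs of each library. The 14 genes of the rule chose the members, so their values are a description and were not used as results.

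The libraries came from C57BL/6 mice (C57BL/6N in the study's methods) that were wild type (WT, Irg1/Acod1 +/+) or homozygous knock-out for Acod1 (KO, Irg1/Acod1 -/-), the gene of the enzyme that makes itaconate in activated myeloid cells. Each genotype had 1 library from untreated naïve brain and 1 from brain carrying GL261 tumours, an implanted syngeneic mouse glioma line, at the early (5 to 10 mm3), intermediate (20 to 25 mm3) and late (30 to 35 mm3) stage. The titles name 2 mice for each naïve library and 1 for each tumour-bearing library. Per the study's methods, the tumour core was dissected, GL261 is a cell line grown from 500 implanted cells, the KO mice carry an inserted cassette from embryonic stem cells, and the WT mice were littermates. The labels place the implant in the right striatum and the methods in the frontal cortex, and the naïve tissue is labelled only as brain, so the tumour and the region sampled cannot be told apart. With 1 library for each genotype and condition, p-values measure the spread between libraries of different stage and genotype.

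Astrocytes are the glial cells that clear glutamate and potassium from the extracellular space, supply neurons with lactate and lipids, and cover blood vessels with water channel-rich endfeet. After injury, infection or tumour growth they become reactive, a state classically read from the intermediate filaments GFAP and vimentin, and under interferon they raise antigen presentation genes. Astrocytes also differ by region of origin. Those of the telencephalon, which includes cortex and striatum, keep other transcription factors and secreted products than those of the diencephalon, brainstem and spinal cord.

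The astrocytes numbered 111 in the WT naïve library, 108 in KO naïve, 22 in WT early, 13 in KO early, 3 in WT intermediate, 8 in KO intermediate, 12 in WT late and 9 in KO late. Their UMIs summed to between 10165 in WT intermediate and 336217 in KO naïve, and WT intermediate, with under 5 cells, was left out of the tests. The median astrocyte held between 2011.5 and 2906 UMIs depending on the library, out of 2885345 to 9950713 UMIs in each table. No astrocyte barcode was shared between libraries, and at most 2 kept barcodes were shared by any pair. The Y-linked transcripts and Xist followed the sexes the methods give for the tumour mice, female for WT early and KO intermediate. Acod1 had 0 UMIs in the astrocytes of every library. Over all kept cells it had between 10 and 161 UMIs in the WT and between 26 and 41 in the KO tumour-bearing libraries, and since 3′ ends are counted and the cassette lies within the gene, these counts check no genotype.

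The label was checked on 20 astrocyte markers the rule did not use, among them Slc4a4, Ntsr2 and Cldn10, whose summed level was 265 to 274 in the naïve and 242 to 317 in the tumour-bearing libraries. The rule's own 6 genes, all detected in 92 of 111 WT naïve and 90 of 108 KO naïve cells, are no check of it. At the threshold, 2 members had sums of 85.0 and 87.7, and 2 cells just outside it had 71.7 and 75.4. A further 11 cells were kept out by oligodendrocyte genes, 4 by tumour genes and 1 by too few detected genes.

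Astrocytes made up a smaller part of the nontumour cells in every tumour-bearing library than in both naïve libraries. The share of nontumour cells (those with the 3 tumour genes under 10) was 24.0% in WT naïve and 23.3% in KO naïve. It was 4.72% in WT early, 5.65% in KO early, 3.80% in WT intermediate, 2.79% in KO intermediate, 8.11% in WT late and 3.18% in KO late. The groups did not overlap, and in neither genotype did the share rise or fall steadily with stage. The means were 23.7% ± 0.458 (SD, n = 2) and 4.71% ± 1.96 (SD, n = 6), a difference of -18.9 percentage points, and the exact two-sided permutation test over libraries gave p = 0.0714, the smallest it can give for 2 against 6. The share depends on which other cells entered the suspension as well as on how many astrocytes did.

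**Figure D1:**
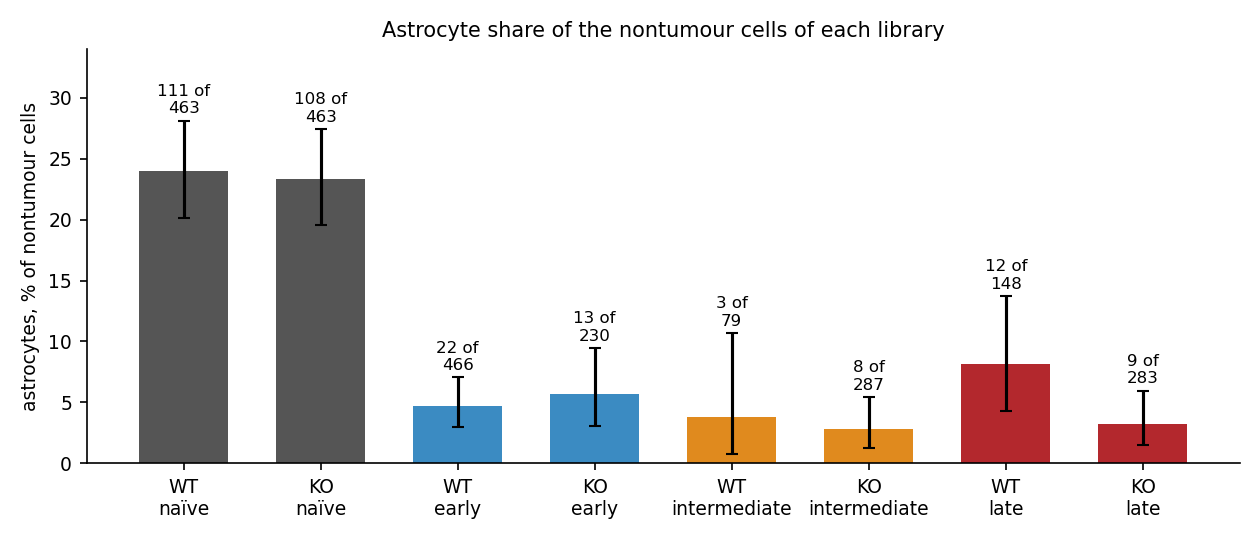
Share of nontumour cells called astrocytes in each library, in percent, with the exact 95% binomial interval, which covers counting error only, and the number of astrocytes over each bar. Both naïve libraries stand at 23.3% or above and all 6 tumour-bearing libraries at 8.11% or below.

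Which genes differed in astrocytes between tumour-bearing and naïve brain was tested on UMIs summed over the astrocytes of each library. Of 1172 genes with enough UMIs, 18 passed an adjusted p of 0.05 (1.54%), 12 higher in the tumour-bearing libraries (1.02%) and 6 lower (0.512%). The genes that rose were led by interferon-stimulated and antigen presentation genes, and the genes that fell included Ttr, the gene of transthyretin, Agt, the gene of angiotensinogen, and Nnat, the gene of the small membrane proteolipid neuronatin. The median log2 change over the genes tested was 0.00, and 579 of them had a positive value. Every tumour-bearing library in the fit lay above both naïve libraries for 73 of the 1172 genes (6.23%) and below both for 33 (2.82%), which held for 7 of the 12 genes that rose and 5 of the 6 that fell. Levels are given as UMIs per 10000 astrocyte UMIs of a library, and each p is from a quasi-likelihood fit in edgeR that includes genotype, adjusted over all 1172 genes by the Benjamini-Hochberg method. The filter on low counts shaped these calls, since 11 of the 12 genes that rose, B2m aside, had enough UMIs only through the tumour-bearing libraries, as did 518 of all genes tested, and 3 of the 6 that fell (Agt, Phgdh and Ttr) only through the naïve ones. Such a gene could hardly be tested without a difference in that direction, so counts over lists are given as a description. Without KO naïve, 15 genes passed but only 6 of the 18 were among them. The calls numbered 8 without KO early, 10 without KO late, 12 without KO intermediate and 13 without WT naïve (11 of the 18).

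**Figure D2:**
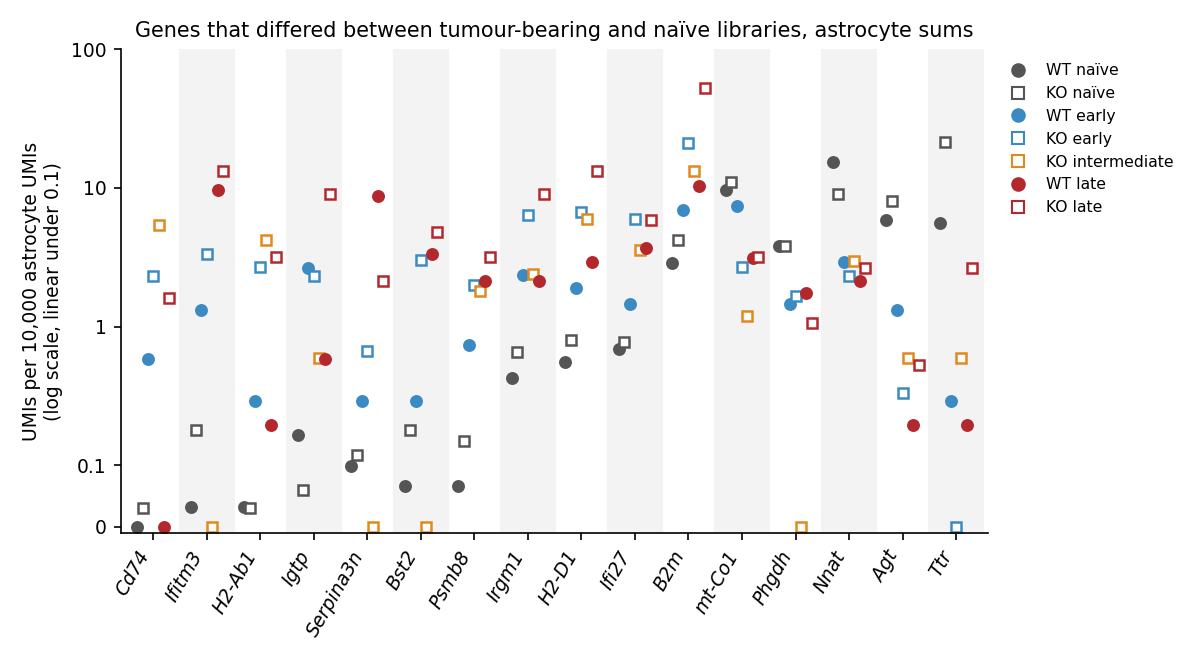
Level of 16 genes that passed the test in the astrocytes of each library, in UMIs per 10000, on an axis that is linear near 0 and logarithmic above. Tumour-bearing points lie above the naïve points for genes such as H2-D1 and Irgm1 and below them for Agt, Nnat and Ttr, while Serpina3n and Bst2 overlap.

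Class I antigen presentation was represented by B2m, the invariant light chain, and the heavy chains H2-D1 and H2-K1. The B2m level (chromosome 2, 122147686 to 122153083) was 2.89 in WT naïve and 4.22 in KO naïve, against 6.87 in WT early, 21.0 in KO early, 13.1 in KO intermediate, 10.3 in WT late and 52.6 in KO late. The groups did not overlap, and within both the early and the late stage the KO library was the higher one. In KO late, 1 cell held 50 of the 99 B2m UMIs, and in WT late 1 cell held 36 of 53. B2m rose by 2.03 on the log2 scale (SE 0.46, adjusted p = 0.0239 by edgeR), a call that was lost without KO naïve (1.47) or KO early (2.09, adjusted p = 0.107 by edgeR). It was also lost without the cells carrying myeloid or tumour UMIs, without the genotype covariate, and with no upper limits on tumour and oligodendrocyte genes.

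H2-D1 (chromosome 17, 35262730 to 35267499) had 0.558 and 0.803 UMIs per 10000 in WT and KO naïve. It reached 1.90 in WT early, 6.67 in KO early, 5.97 in KO intermediate, 2.92 in WT late and 13.3 in KO late, again with no overlap. In WT late, 1 cell held 12 of the 15 H2-D1 UMIs, and without it the level was 1.08. The log2 change of H2-D1 was 2.66 (SE 0.46, adjusted p = 0.00115 by edgeR), lost without KO naïve (1.98, adjusted p = 0.258 by edgeR). H2-K1, the other classical class I heavy chain of this strain, did not pass (log2 change 1.62, SE 0.48, adjusted p = 0.112 by edgeR), with 1.38 and 1.90 in the naïve libraries and 1.56 in WT late but 19.7 in KO late. Psmb8, an inducible subunit of the immunoproteasome, rose (3.83, SE 0.88, adjusted p = 0.0243 by edgeR) from at most 0.149 to between 0.731 and 3.19, but not without WT naïve, KO naïve, KO early, KO intermediate or KO late (3.58 to 4.04). H2-D1 and H2-K1 belong to a family of near-identical genes among which 3′ reads may be split or lost.

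Of 19 genes listed for class I presentation and peptide processing, 7 had enough UMIs to be tested, of which 4 passed the filter only through the tumour-bearing libraries, 3 rose and 4 did not pass the test. The summed level of the 19 genes was 18.6 to 21.8 in the naïve and 26.9 to 122 in the tumour-bearing libraries. Of 7 class II genes, 2 had enough UMIs, in the tumour-bearing libraries alone. Cd74, the invariant chain, had 1 UMI among all naïve astrocytes and 23 among the tumour-bearing ones, with 0 in WT late and 5.37 UMIs per 10000 in KO intermediate (log2 change 5.83, SE 1.47, adjusted p = 0.043 by edgeR). Of the 9 Cd74 UMIs in KO intermediate, 8 were in 1 cell. H2-Ab1, a class II beta chain, rose by 5.01 on the log2 scale (SE 1.29, adjusted p = 0.0499 by edgeR), from at most 0.0328 to between 0.195 and 4.18. Cd74 was not called without WT naïve, KO naïve (4.46) or KO late, and H2-Ab1 not without any 1 of the 7 libraries (2.41 to 5.99). Only KO early and KO intermediate reached the filter's level for Cd74, 1.95 UMIs per 10000, and it could be tested in only 13 of 20 alternatives. Class II genes are hallmarks of macrophages and microglia, and the macrophage markers are given beside the low-UMI barcodes further on.

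Of 25 interferon-stimulated genes, 7 were tested and 5 rose, but all 7 passed the filter only through the tumour-bearing libraries. The summed level of the 25 genes was 3.41 to 4.97 in the naïve and 13.5 to 81.3 in the tumour-bearing libraries, a sum that includes the genes not tested. Irgm1 (chromosome 11, 48861968 to 48871683), an immunity-related GTPase that acts on intracellular membranes, had 0.427 in WT naïve and 0.654 in KO naïve. Its tumour-bearing levels were 2.34 in WT early, 6.33 in KO early, 2.39 in KO intermediate, 2.14 in WT late and 9.04 in KO late. The groups did not overlap (log2 change 2.68, SE 0.46, adjusted p = 0.00115 by edgeR), and the call was lost without KO naïve (2.29, adjusted p = 0.096 by edgeR).

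Igtp, a second GTPase of that family, had at most 0.164 in the naïve libraries and 2.63, 2.33, 0.597, 0.584 and 9.04 in WT early, KO early, KO intermediate, WT late and KO late (log2 change 4.31, SE 0.88, adjusted p = 0.0072 by edgeR). Ifi27, a mitochondrial interferon-induced protein, rose from 0.689 and 0.773 to between 1.46 and 6.00 with no overlap (2.17, SE 0.43, adjusted p = 0.00657 by edgeR). Of the 19 Ifi27 UMIs in WT late, 14 were in 1 cell. Both genes were higher in all 5 tumour-bearing libraries. Igtp lost its call without KO naïve (3.19) or KO late (3.65), and Ifi27 without KO naïve (1.75) or KO early (2.06).

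Ifitm3 (chromosome 7, 141009586 to 141010770), which restricts virus entry at endosomes, had the largest change of the group at 5.36 (SE 0.88, adjusted p = 0.00098 by edgeR). Its level was 0.0328 in WT naïve, 0.178 in KO naïve, 1.32 in WT early, 3.33 in KO early, 0 in KO intermediate, 9.73 in WT late and 13.3 in KO late. Both late libraries were the highest and KO intermediate lay below both naïve ones, so the groups overlapped. Bst2, the membrane tether that retains budding viruses, overlapped in the same way, with 0 in KO intermediate and between 0.293 and 4.78 in the others (3.91, SE 0.95, adjusted p = 0.0374 by edgeR). Bst2 did not pass without WT naïve, KO naïve, KO early, WT late or KO late (3.24 to 4.32), whereas Ifitm3 passed without each library. Of the 17 Bst2 UMIs in WT late, 16 were in 1 cell, and without that cell Bst2 did not pass either. Lgals3bp, a secreted galectin-binding protein, came close (2.34, SE 0.61, adjusted p = 0.0515 by edgeR).

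The promoters of the genes that rose were read because interferon-stimulated genes led that group. The group was chosen by the tumour-bearing against naïve test on these data, so the motif counts are a description. RefSeq promoters (250 bases before to 50 after the start site, GRCm38.p6) were found for 9 of the 12 genes that rose, and the core of the interferon-stimulated response element, GAAA then any 2 bases then GAAA, on either strand, was in 5 of them (B2m, Bst2, Ifitm3, Igtp and Irgm1). It was in none of the 3 promoters found for the genes that fell, in 3.44% of all 32851 promoters and in 34 of the 880 tested genes with a promoter. The STAT dimer core TTCNNNGAA was in 4 of the 9 (Bst2, Ifitm3, Igtp and Psmb8), in 1 of the 3 (Agt) and in 8.30% of all promoters, and its match in Bst2 overlapped the other motif. The 3 windows below, 100 bases each and shown as examples that end before the start site, carry the match to the first motif in capitals. The first match begins at -139, -130 and -34 relative to the start site.
B2m chr2:122147503-122147602 plus strand: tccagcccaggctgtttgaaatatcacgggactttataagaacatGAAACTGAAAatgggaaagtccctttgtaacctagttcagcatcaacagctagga
Bst2 chr8:71537548-71537647 minus strand: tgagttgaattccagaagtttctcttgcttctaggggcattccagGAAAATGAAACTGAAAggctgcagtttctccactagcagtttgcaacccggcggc
Igtp chr11:58199456-58199555 plus strand: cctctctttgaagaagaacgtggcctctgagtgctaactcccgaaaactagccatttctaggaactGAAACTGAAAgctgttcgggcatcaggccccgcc
Bst2 holds 2 overlapping matches, so its capitals run over 16 bases. A match is a description of these letters and not a measured binding site.

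The same antigen presentation and interferon genes were also higher outside the astrocytes. In the 1000 listed barcodes with the fewest UMIs of each library, a measure of free RNA and of cells with little RNA, all 11 genes that rose (Xist aside) lay above both naïve libraries in every tumour-bearing library of the fit, and in oligodendrocyte sums 10 of the 11 did. The share of all genes that did so in these barcodes and sums was not counted, so the counts are a description. B2m was 9.36 to 11.3 in the naïve and 26.0 to 83.7 in the tumour-bearing low-UMI barcodes, and H2-D1 2.30 to 2.33 and 7.65 to 28.1. For 6 of the 11 genes the astrocyte level was under the low-UMI level in every tumour-bearing library. Ifi27 was among the exceptions, with 1.37 to 2.63 in the tumour-bearing low-UMI barcodes, and it was also present at 2.69 to 5.64 in oligodendrocytes of tumour-bearing brain. The part of free RNA in these changes was not tested.

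**Figure D3:**
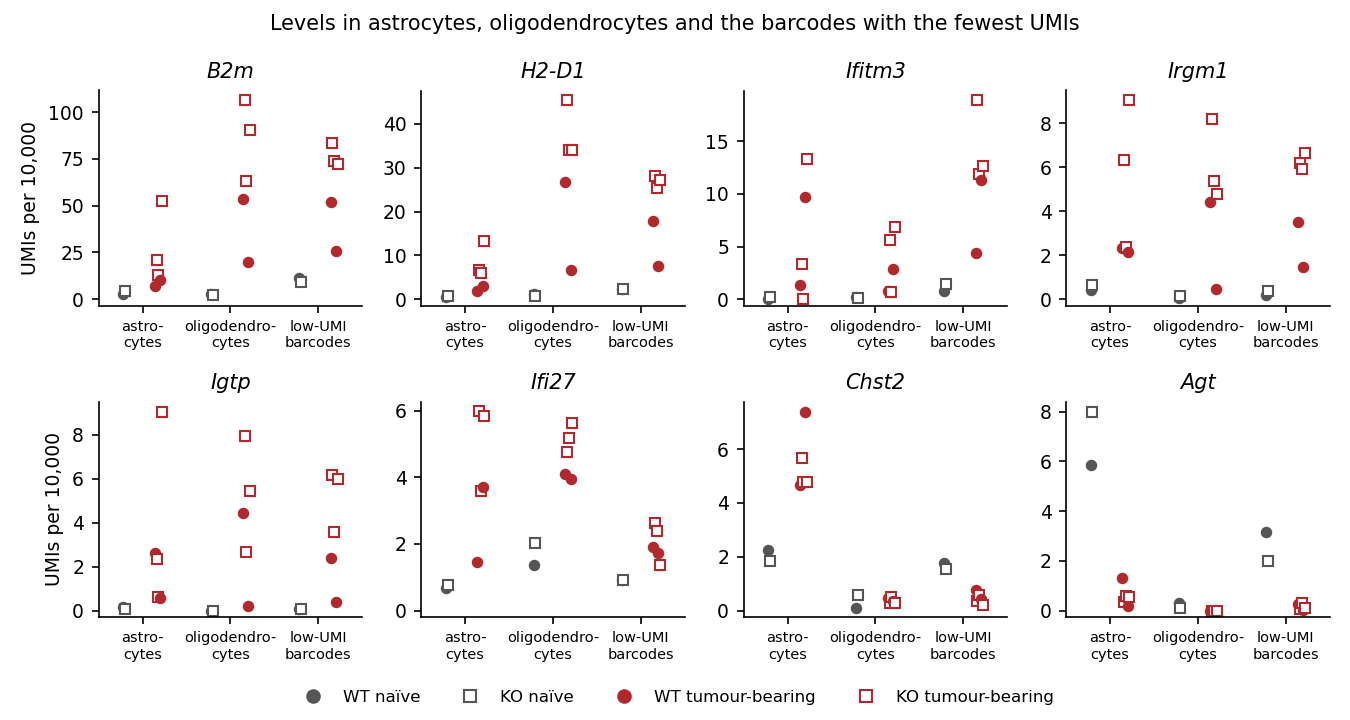
Level of 8 genes in UMIs per 10000 in the astrocytes, the oligodendrocytes and the low-UMI barcodes of each library, with naïve libraries in grey, tumour-bearing libraries in red, WT as filled circles and KO as open squares. B2m and H2-D1 are higher in tumour-bearing libraries in all 3 sources, while Chst2 is highest in astrocytes in every library.

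Inside the astrocytes, the summed level of 9 microglia markers was 2.62 to 21.0 in the naïve and 0.78 to 14.9 in the tumour-bearing libraries. That of 8 macrophage markers was 0.03 to 0.24 and 0 to 5.37, and the 5.37, in KO intermediate, was Cd74 alone. Ly6c2 and Ms4a7 had 0 UMIs throughout, Arg1 and Plac8 0 in the naïve and Ccr2 0 in the tumour-bearing astrocytes. Among cells with under 10 UMIs per 10000 of 6 myeloid genes, B2m was 2.71 and 2.75 in WT and KO naïve, against 6.87 in WT early, 19.8 in KO early, 7.91 in KO intermediate, 10.3 in WT late and 52.6 in KO late. The KO late value includes the cell that held 50 of the 99 B2m UMIs, and the WT late value the cell that held 36 of 53. With the cells carrying myeloid or tumour UMIs removed, KO early fell under 5 cells and left the fit too, and 8 genes of 1029 passed in place of 18 of 1172. B2m, Ifi27, Psmb8, Bst2, H2-Ab1, Serpina3n, Phgdh and mt-Co1 were tested there and no longer passed.

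Counted as cells, with each thinned to 1500 UMIs and none left out, a larger share of tumour-bearing astrocytes held a UMI of these genes. H2-D1 had a UMI in 9.13% of the 219 naïve and 43.8% of the 64 tumour-bearing astrocytes of the fit, B2m in 35.2% and 62.5%, Irgm1 in 5.02% and 29.7%, and Ifitm3 in 0.913% and 28.1%. By library, H2-D1 had a UMI in 8.11% of cells in WT naïve, 10.2% in KO naïve, 31.8% in WT early, 69.2% in KO early, 62.5% in KO intermediate, 8.33% in WT late and 66.7% in KO late, so that WT late lay among the naïve libraries. Unthinned, H2-D1 had a UMI in 15.5% of naïve and 51.6% of tumour-bearing astrocytes. Of the oligodendrocytes, 6.34% of naïve and 68.6% of tumour-bearing cells had an H2-D1 UMI after thinning, at the same depth. No cell type here is known to lack these genes, so a UMI does not tell an expressing cell from one that took up free RNA, and a cell without one may still express the gene.

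Whether these changes differed between astrocytes and oligodendrocytes, the myelinating glia of the same suspensions, was tested as the cell type by tumour term with the library as a block. Of 3995 genes, 7 passed (0.175%). The signed log2 change in astrocytes was above that in oligodendrocytes for 3 (0.0751%), 1 of them the rule gene Gja1, and below it for 4 (0.1%). The median difference over all these genes was -0.23 with TMM but 0.03 with RLE size factors and 0.02 with DESeq2, against which the values of single genes stand. Between 2 genes (without KO naïve) and 24 (without WT late) passed when 1 library was left out. The B2m change was smaller in astrocytes by 2.76 on the log2 scale (log2 difference -2.76, SE 0.54, adjusted p = 0.00624 by edgeR) and that of H2-K1 too (-2.24, SE 0.52, adjusted p = 0.0497 by edgeR). Oligodendrocyte B2m was 2.57 and 2.24 in WT and KO naïve but 53.3 in WT early, 106 in KO early, 63.4 in KO intermediate, 20.0 in WT late and 90.2 in KO late, and in these 5 tumour-bearing libraries it was above the astrocyte level. The B2m difference was not called without KO naïve (-2.39) or WT early (-2.17), nor that of H2-K1 without WT naïve, KO naïve (-1.57) or WT early. H2-D1 had a like difference that did not pass (-2.28, SE 0.60, adjusted p = 0.0808 by edgeR).

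The sorting nexin gene Snx10 (-5.40) and Rgcc, a cell cycle regulator (-3.26) also had smaller changes in astrocytes. Both were near the floor in naïve oligodendrocytes, at most 0.0733 for Snx10 and 0.183 for Rgcc, and Snx10 had 15 UMIs in the tumour-bearing astrocytes. Oligodendrocyte levels in tumour-bearing brain were 0.678 to 2.82 for Snx10 and 0.133, in WT early, to 3.05 for Rgcc. In the low-UMI barcodes Rgcc went from at most 1.78 to between 3.79 and 16.3. For Slc4a4, the bicarbonate transporter, the astrocyte change minus the oligodendrocyte change was 3.48. Its log2 change in astrocytes was -0.17 (SE 0.30, adjusted p = 0.974 by edgeR), and its level fell in oligodendrocytes. Astrocyte Slc4a4 itself was 24.5 and 20.6 in WT and KO naïve and 17.0 to 28.4 in the tumour-bearing libraries, while in oligodendrocytes it was 1.25 and 1.24 in naïve and at most 0.199 in tumour-bearing brain. In the low-UMI barcodes Slc4a4 went from 8.73 and 15.1 to between 0.786 and 3.90 over the same libraries. Without KO naïve none of these 3 passed, and Rgcc was not called without WT late (-2.27) either. The split of higher and lower calls depends on the scaling, 3 and 4 with TMM but 14 and 3 with RLE size factors.

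Among classical gliosis genes Serpina3n rose and Vim and Gfap did not pass. Of 13 genes of the reactive state shared across injuries these 3 were tested, all of which passed the filter only through the tumour-bearing libraries. Serpina3n, a secreted protease inhibitor, passed (4.11, SE 1.01, adjusted p = 0.0397 by edgeR), yet its levels were 0.0984 and 0.119 in WT and KO naïve, 0.293 in WT early, 0.667 in KO early, 0 in KO intermediate, 8.76 in WT late and 2.13 in KO late. The late libraries were the highest and KO intermediate was below both naïve ones.

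Vim was 1.54 in WT naïve, 1.01 in KO naïve, 1.17 in WT early, 5.67 in KO early, 3.58 in KO intermediate, 52.6 in WT late and 5.85 in KO late (log2 change 3.02, SE 0.79, adjusted p = 0.0503 by edgeR). Gfap was 1.48 and 0.744 in WT and KO naïve and 2.34, 0.667, 0.597, 10.5 and 4.25 in WT early, KO early, KO intermediate, WT late and KO late (1.57, SE 0.55, adjusted p = 0.296 by edgeR). Both filament genes overlapped between the groups and were highest in WT late. Vim, next to the threshold, passed it in 9 of 20 alternatives, and Serpina3n lost its call in 7 of the 15 that tested it.

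A single droplet held much of the WT late signal. That astrocyte had 23706 of the 51377 astrocyte UMIs of the library, 228 of its 270 Vim UMIs, 42 of 45 Serpina3n UMIs and 42 of 50 Ifitm3 UMIs. It also held 190 Fabp7 and 89 Igfbp2 UMIs. Without it the WT late level of Vim was 15.2, of Serpina3n 1.08 and of Ifitm3 2.89, while Gfap was 14.1. B2m then fell from 10.3 to 6.14, H2-D1 from 2.92 to 1.08, Ifi27 from 3.70 to 1.81 and Bst2 from 3.31 to 0.361. Psmb8 went from 2.14 to 2.53. Serpina3n then no longer passed (log2 change 2.51, adjusted p = 0.848 by edgeR), nor did it without WT naïve (2.56) or KO early (4.31). A Gfap, Vim and Serpina3n sum of at least 20 UMIs per 10000 was found in 5 of 219 naïve (2.28%) and 5 of 67 tumour-bearing astrocytes (7.46%), the highest a WT late cell of 3417 UMIs with 34 Gfap and 34 Vim UMIs. Lcn2, a secreted gliosis marker, had 23 UMIs, all in 1 WT late cell. In KO late, 1 cell of 1892 UMIs held 50 of the 99 B2m UMIs, 9 of 25 H2-D1 UMIs and 13 of 25 Ifitm3 UMIs.

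Of genes typical of astrocytes after endotoxin, 2 of 11 in the tables were tested, H2-D1 and Psmb8, which are also in the class I list. Both had enough UMIs only through the tumour-bearing libraries. None of the 12 genes typical of the response to ischaemia and none of 7 complement genes had enough UMIs to be tested. C4b, a complement component, was 0.459 and 0.357 in the naïve and 1.19 to 1.75 in the tumour-bearing libraries of the fit, without a test.

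The study names 9 genes for tumour-associated astrocytes, a list chosen on these samples and so not independent evidence of its direction. Of them 8 were tested and 4 rose (B2m, H2-D1, Ifi27 and Ifitm3), and all but B2m had enough UMIs only through the tumour-bearing libraries. Chst2, a sulfotransferase that modifies matrix and cell surface sugars, was 2.23 in WT naïve and 1.84 in KO naïve, against 4.68, 5.67, 4.78, 7.40 and 4.78 in WT early, KO early, KO intermediate, WT late and KO late. The groups did not overlap, yet the change missed the threshold (log2 change 1.29, SE 0.35, adjusted p = 0.0648 by edgeR). Unlike the interferon genes, Chst2 was lower in the tumour-bearing low-UMI barcodes, 0.205 to 0.765 against 1.53 to 1.78, and a UMI was found in 25.6% of naïve and 54.7% of tumour-bearing astrocytes against 5.63% and 6.86% of oligodendrocytes, each thinned to 1500 UMIs. Fos, an immediate early gene, did not pass (1.11, adjusted p = 0.753 by edgeR), and Mgp, a matrix protein, had too few UMIs to be tested.

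No tested gene in the lists of core astrocyte work passed. Phgdh, which is in none of these lists, fell and is given below. Members needed high levels of the rule's astrocyte genes, so cells that had lost them could not be counted. Of 20 genes for glutamate uptake, water, potassium and coupling, 18 were tested and none passed, with a median log2 change of -0.06. Their summed level was 185 to 189 in the naïve and 197 to 229 in the tumour-bearing libraries, with no overlap. These sums, unlike the log2 changes, are not scaled by TMM. Kcnj10, the glial potassium channel, was 6.17 and 5.83 in WT and KO naïve and 5.67 to 10.1 in the tumour-bearing libraries, and Glul, glutamine synthetase, 27.6 and 27.8 against 31.7 to 49.5. Neither passed (log2 change 0.14, SE 0.32, and 0.32, SE 0.32, adjusted p = 0.996 and 0.95 by edgeR). Likewise no gene passed among 11 tested lipid and cholesterol genes (median -0.06), 6 glycolysis and glycogen genes (0.13), 7 metallothionein and antioxidant genes (0.20), 10 synapse and matrix regulators (-0.26), 13 growth factor and Notch genes (-0.16), 8 cytoskeleton and stress genes (0.70) or 7 ribosomal protein genes (0.57). A p above the threshold does not show that these levels were equal.

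**Figure D4:**
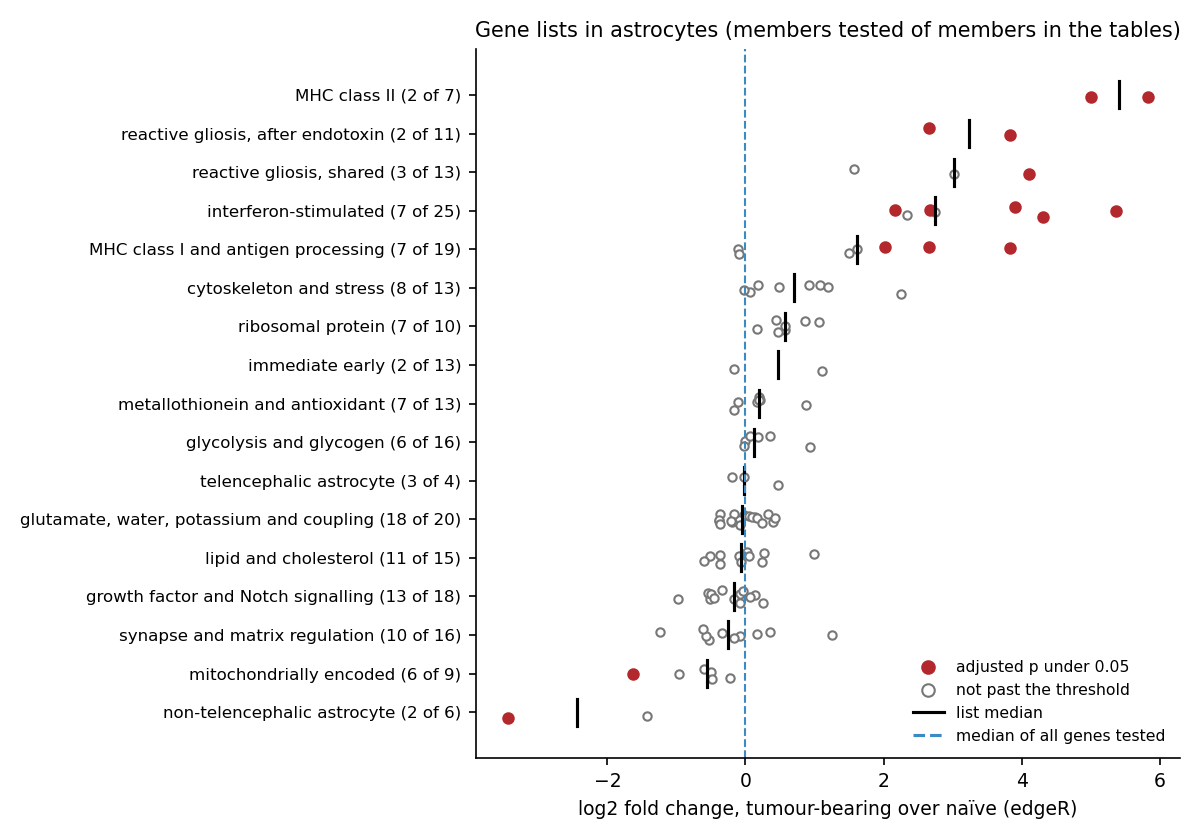
Log2 change of each tested gene in tumour-bearing against naïve astrocytes, grouped by gene list, with genes past the threshold in red, the list median as a black bar and the median of all tested genes as a dashed line. The 7 interferon-stimulated genes, which passed the filter only through the tumour-bearing libraries, lie above 0, and the transporter and coupling list has a median of -0.06.

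Agt, Nnat and Phgdh fell, and each was lower in every tumour-bearing library than in both naïve ones. Astrocytes are the main source of angiotensinogen in the brain, and those outside the telencephalon carry more of it. Its level (chromosome 8, 124556534 to 124569706) was 5.87 in WT naïve and 8.00 in KO naïve, against 1.32 in WT early, 0.333 in KO early, 0.597 in KO intermediate, 0.195 in WT late and 0.532 in KO late. The groups did not overlap (log2 change -3.44, SE 0.47, adjusted p = 9.28e-05 by edgeR). After thinning, an Agt UMI was found in 35.2% of naïve and 6.25% of tumour-bearing astrocytes (41.6% and 12.5% unthinned), and in 0.704% of naïve and 0 of 204 tumour-bearing oligodendrocytes.

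Nnat (chromosome 2, 157560078 to 157562522) was 15.3 in WT naïve and 8.98 in KO naïve and between 2.14 and 2.98 in the 5 tumour-bearing libraries (log2 change -2.34, SE 0.33, adjusted p = 0.000135 by edgeR). Phgdh, the first enzyme of serine synthesis, fell from 3.84 and 3.81 to between 0 and 1.75 (-1.65, SE 0.42, adjusted p = 0.0456 by edgeR). Phgdh was no longer called without any 1 of the libraries other than WT late (-1.33 to -2.13), whereas Agt and Nnat passed without each library. In the low-UMI barcodes Agt and Nnat were also lower in tumour-bearing brain, Agt at 0.0239 to 0.314 against 1.98 to 3.15.

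Of 6 genes listed for astrocytes outside the telencephalon, 2 were tested, Agt and Itih3, a hyaluronan-binding matrix protein. Agt passed the filter only through the naïve libraries. Itih3 did not pass (-1.43, adjusted p = 0.0659 by edgeR). The summed level of the 6 genes was 10.4 to 13.2 in the naïve and 1.75 to 3.0 in the tumour-bearing libraries, with no overlap. Of 4 genes listed for astrocytes of the telencephalon, 3 were tested and none passed (median -0.02). Among them were Mfge8, a secreted phagocytosis bridge, at -0.02 and the transcription factor Lhx2. The region sampled and the presence of a tumour cannot be told apart in these changes.

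Within naïve brain, astrocytes with and without an Agt UMI differed in the same direction in both libraries for the genes given below. Apoe did not, with 174 in WT naïve cells with Agt and 182 in those without, and 211 and 196 in KO naïve. Each cell was thinned to 1500 UMIs, and Agt was found in 33 of 111 WT naïve and 44 of 108 KO naïve cells. The split is made on these cells, so the levels are a description without a test. Sparc, a matrix-binding secreted protein, was 20.6 in WT naïve cells with Agt and 2.99 in those without, and 28.8 and 3.65 in KO naïve. Itih3 was 7.68 and 1.03, then 7.73 and 1.56. Slc6a11, the GABA transporter of glia, was 8.69 and 3.42, then 13.0 and 4.48.

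Nnat (15.6 and 9.06, then 18.6 and 4.58) and Gfap (4.04 and 0.513, then 2.12 and 0.208) were also higher with Agt. Lhx2 went the other way, 0.404 and 1.45, then 0.152 and 1.46, as did Mfge8 with 13.3 and 17.7, then 13.6 and 21.8. The glutamate transporter Slc1a2 was lower with Agt, 72.9 and 119, then 74.4 and 97.6. The naïve astrocytes were thus not uniform. Over 585 genes whose mean reached 0.3 in both naïve libraries, the ratio of variance to mean over thinned cells had a median of 1.14, and for 29 genes, among them Agt and Nnat, it was over 2 in both.

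**Figure D5:**
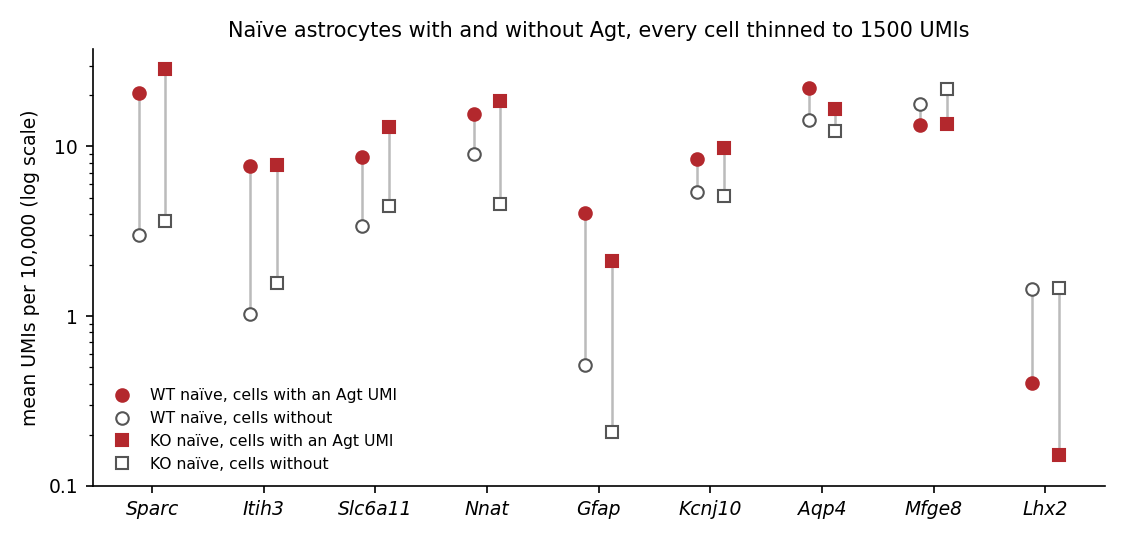
Mean level of 9 genes in naïve astrocytes with and without an Agt UMI, in UMIs per 10000 on a log axis, with cells thinned to 1500 UMIs and both naïve libraries shown. Sparc and Itih3 are higher with Agt in both libraries, Mfge8 and Lhx2 lower.

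Ttr and mt-Co1 also fell. Ttr, the thyroid hormone carrier made in the choroid plexus, was 5.61 and 21.3 in WT and KO naïve and between 0 and 2.66 in the tumour-bearing libraries (log2 change -4.62, SE 0.49, adjusted p = 2.49e-06 by edgeR). Its level in low-UMI barcodes was 106 to 133 in the naïve and 0.211 to 33.0 in the tumour-bearing libraries, above that in astrocytes in every library. mt-Co1, a mitochondrially encoded oxidase subunit, fell by 1.63 (SE 0.39, adjusted p = 0.0356 by edgeR), and in low-UMI barcodes it went from 18.3 and 20.6 to at most 5.83. Of the 6 mitochondrially encoded genes tested it was the one that passed, with a median of -0.55. The mt-Co1 call was lost without KO naïve (-0.91), KO early, KO intermediate or KO late. The part of free RNA in these changes was not tested.

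Xist, the X-inactivation transcript, also rose in the test, with 0 UMIs in the naïve astrocytes and all of its UMIs in WT early and KO intermediate, whose mice were female. Without those 2 libraries 24 genes passed.

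Genotype was compared over all conditions. Of 1172 genes, 1 passed (0.0853%): Ctss, the gene of cathepsin S, a lysosomal protease of microglia, was higher in KO (log2 difference 3.79, SE 0.59, adjusted p = 0.00149 by edgeR). Its level was 0.623 in WT naïve and 6.48 in KO naïve, 0 in WT early, 2.00 in KO early, 0 in WT intermediate, 5.97 in KO intermediate, 0 in WT late and 1.06 in KO late. Each KO library lay above the WT library of its stage. In KO naïve, 13 astrocytes with at least 10 UMIs per 10000 of 6 myeloid genes held 195 of the 218 Ctss UMIs. With the cells carrying myeloid or tumour UMIs removed, Ctss had too few UMIs to be tested. Without the doublets called it did not pass (2.59, adjusted p = 0.996 by edgeR). The Ctss call was also lost without KO naïve (7.37, adjusted p = 0.0723 by edgeR), and the number of genes called went up to 12 without WT naïve and 11 without KO naïve. With WT and KO paired by stage, the stage as a block, 6 genes passed, 4 higher and 2 lower in KO, and Ctss was among them (3.57, adjusted p = 1.75e-05 by edgeR). WT intermediate was not in this fit, so KO intermediate had no partner and only the naïve, early and late libraries formed pairs.

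Of the 11 genes that rose with tumour, 10 were higher in KO by sign, with log2 differences from -1.69 to 2.90, and none passed (smallest adjusted p = 0.478 by edgeR, for H2-D1 at 1.30, SE 0.40). The KO library was above the WT library for 10 of the 11 genes at the early stage and for 10 at the late stage, and in the low-UMI barcodes for 11 and 9. How many of all tested genes had KO above WT at each stage was not counted, so these counts are a description. Over all 1172 genes the median log2 genotype difference was -0.003. The tumour by genotype term passed for 0 genes by edgeR (18 unadjusted) and for 0 by DESeq2 (4 unadjusted). For the 11 genes it ranged from -2.57 to 3.62 with a smallest adjusted p of 0.999 by edgeR, with 1 naïve library for each genotype.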

How the data were processed

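Members and gene lists were chosen with earlier results of these data known. The authors deposited raw UMI counts per gene and barcode, 3000 barcodes per library, made from Drop-seq 3′ reads. The submitters' processing notes name bcl2fastq 2.0, STAR, GRCm38 and mm10. Here UMIs were summed over the astrocytes of each library with at least 5 and tested with edgeR 4.0.16 (TMM, filterByExpr, quasi-likelihood) in R 4.3.3 after a run on simulated counts, at an adjusted p of 0.05. Shares were tested by an exact permutation test in scipy 1.17.1. Each test was repeated with DESeq2 1.42.0, RLE size factors, other filters and cell rules, without doublets and leaving out each library. Doublets stayed in the main tests, and Scrublet (scanpy 1.11.5) marked 2 WT naïve, 12 KO naïve and 0 tumour-bearing astrocytes, with the 5% highest scores taken where under 0.5% were marked. Named genes were those past the threshold in a list, the 10 largest non-overlapping changes each way, the 3 most abundant of each list, the study's genes and the 5 smallest p-values of the other tests. C4b, Lcn2, Lgals3bp, Itih3, Ctss's myeloid split and the cells by droplet were picked after their values were seen. UMI intervals cover counting error only. Some genes past the threshold are not reported here. Positions are from GENCODE release M21.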

Additional observations from a re-analysis of the deposited data

Results flagged for a closer look

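In 4 of the 32 genes or measures examined, a library lay far from the others of its group by Dixon's criterion at the 95% level, which chance alone meets now and then. Among the 5 tumour-bearing libraries, Vim was 52.6 UMIs per 10000 in WT late against 1.17 to 5.85, and Serpina3n was 8.76 in WT late against at most 2.13. Igtp was 9.04 in KO late against 0.584 to 2.63, and Ttr 2.66 in KO late, on 5 UMIs, against at most 0.597.

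The change with tumour differed between astrocytes and oligodendrocytes, on the log2 scale and by edgeR with Benjamini-Hochberg adjustment, for Snx10 (-5.40), Rgcc (-3.26), B2m (-2.76), H2-K1 (-2.24) and Slc4a4 (3.48).

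WT intermediate, left out of the tests with 3 astrocytes, lay above both naïve libraries for 9 of the 12 genes that rose. The share of all tested genes for which it did so was not counted. B2m was 4.92, H2-D1 1.97 and Chst2 9.84 there.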

How the results depend on the processing

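Of the tumour-bearing against naïve calls, 18 became 14 with DESeq2, 20 with RLE size factors, 49 with no filter on low counts, 18 with the astrocyte genes at 120 or more, 8 without cells carrying myeloid or tumour UMIs, which also took KO early out of the fit, 30 with at least 500 genes per cell, 15 without doublets, 9 with at least 10 cells per sum, 9 without the genotype covariate and 8 to 18 leaving out each library. Chosen after seeing the data, they became 24 without the libraries of female mice, 10 with no upper limits on tumour and oligodendrocyte genes, 13 with cells thinned and 16 without the largest WT late cell. Agt, Nnat and Ttr passed in all of these. H2-D1 and Irgm1 were lost only without KO naïve and Ifitm3 only with DESeq2. The 1 genotype call became 8 with no filter, 0 without myeloid or tumour UMIs, 2 with at least 500 genes, 0 without doublets, 6 with the stage as a block and 1 to 12 leaving out each library. Interaction calls were 0 to 5 leaving out each library, 5 without WT early, and could not be fitted without a naïve library. The 7 astrocyte against oligodendrocyte calls became 15 with DESeq2, 17 with RLE, 12 with no filter, 9 at 120, 3 without myeloid or tumour UMIs, 25 with at least 500 genes, 2 without doublets, 18 with at least 10 cells and 2 to 24 leaving out each library. The share difference was -22.2 points of all kept cells, -23.1 with at least 500 genes, -17.8 at 120 and -19.6 to -18.6 leaving out each library. None of the 22 genes followed across these settings changed sign. No paired analysis was possible by replicate number because the numbers only name samples, while the block on stage above pairs WT with KO at the naïve, early and late stages. Few cells and UMIs in the tumour-bearing libraries limit the genes that could be tested.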
